A study of Callithrix jacchus with 4 samples.

Results

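The 5 genes described here, *P2RY12*, *CX3CR1*, *CSF1R*, *GPR34* and *MED12L*, are grouped as genes of microglia in the resting, or homeostatic, state, though not all are specific to it. They were taken by name from the tables of unique molecular identifiers (UMIs, each counting 1 captured RNA molecule), and all 5 were listed in both tables, among 32323 genes listed for the injured cohort and 16383 listed for the control cohort. Microglia are the resident macrophages of the brain. In undisturbed tissue they extend fine processes that survey their surroundings, and after injury they retract these processes, divide, take up debris and commonly lower the genes of the surveying state. Macrophages that enter from blood share many of their genes, and *CSF1R* in particular is used by both.

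The members have distinct roles. *P2RY12* encodes a receptor for ADP that guides microglial processes towards damaged cells. *CX3CR1* encodes the receptor of fractalkine (*CX3CL1*), a ligand made mainly by neurons, and *CSF1R* the receptor of the growth factors *CSF1* and *IL34*, on which microglial survival depends. *GPR34* encodes a receptor for lysophosphatidylserine. *MED12L* is the paralog of *MED12*, a subunit of the kinase module of Mediator, the complex that links transcription factors to RNA polymerase.

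Single nuclei of primary visual cortex (V1) of adult marmosets (*Callithrix jacchus*) were sequenced on a droplet platform. The injured cohort was 3 animals taken 7 days after a focal stroke of V1 brought about by endothelin-1 (ET-1), a peptide that constricts vessels, with core and penumbra in the dissected tissue, and each animal gave 1 library. The control cohort was 3 animals without stroke, pooled in 1 library, so that it gives 1 value per gene and no spread between control animals. The cohorts also differed in how nuclei were isolated (a sucrose cushion in the injured, fluorescence sorting in the control), in the sequencer and in the removal of doublets, and these differences cannot be told apart from injury. The libraries held 7500, 12527 and 9510 nuclei in injured replicates 1, 2 and 3, and 8610 in the control, with 35737777, 48722394, 42956736 and 22832703 UMIs. Of 38022 distinct barcodes, 125 occurred in more than 1 library, and among Microglia 2 of 7860 did.

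The nuclei annotated as Microglia by the authors numbered 2823, 2692 and 2218 in the injured animals and 129 in the control pool, which is 37.6%, 21.5% and 23.3% of nuclei against 1.50% (exact 95% binomial interval 1.25 to 1.78). Their median depth was 3930, 2428 and 3183 UMIs per nucleus against 793 in the control, and all control Microglia together held 124463 UMIs. Values below are therefore given as UMIs of a gene per 1000000 UMIs of all genes (CPM), summed over the Microglia of a library. The control values rest on 29 to 99 UMIs per member, and their intervals (exact Poisson, 95%) cover counting error only.

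The annotated Microglia of the injured cohort were not of one kind. The authors' clusters 6, 16, 21 and 27 made up 47.8%, 28.7%, 23.3% and 0.272% of them. Cluster 16 carried lymphocyte genes: *SKAP1*, an adaptor of the T cell receptor, stood at 443 CPM there and at 3.92 and 8.27 CPM in clusters 6 and 21, and *CD3E*, a chain of that receptor, at 96.3 CPM against 0.196 and 0.370. *MS4A1*, a B cell gene, stood at 136 CPM in cluster 16. Summed over the 7 lymphocyte genes listed in both tables, cluster 16 held 1552 CPM, clusters 6 and 21 held 114 and 98.4 CPM, and the control Microglia held 104 CPM with 4 of the 7 detected. The median depth of cluster 16 was 1497 UMIs, and its shares were alike in the 3 animals (28.5%, 29.5% and 27.8%). Of the authors' microglia markers, *CD74* was at 1869 CPM and *DOCK8*, which is used by all leukocytes, at 1150 CPM in cluster 16, while *P2RY12* was at 26.1 CPM (141 and 258 CPM in clusters 6 and 21), *GPR34* at 16.6 CPM (9.88 and 79.6 CPM) and *C1QB*, a complement gene, at 149 CPM (476 and 446 CPM). The other homeostatic genes summed to 1093 CPM in cluster 16, against 2578 and 3629 CPM, and the macrophage and monocyte genes to 1460 CPM, against 4128 and 2384 CPM. Its pan-myeloid genes, some of them used by other leukocytes too, summed to 6777 CPM, against 9332 and 9369 CPM, and its myeloid transcription factors to 4338 CPM, against 3971 and 5468 CPM. Since the lymphocyte genes of that cluster go against its label, each test of a member below is given with and without it, while the other gene lists were tested with it only. *SALL1*, a transcription factor that marks resident microglia as opposed to blood-derived macrophages, was at 48.2 CPM in cluster 21 and at 0.981 CPM in cluster 6, while cluster 6 had the highest *CD163* (736 CPM), *LYZ* (346 CPM) and *VCAN* (355 CPM), genes of macrophages and monocytes. Other genes of that list went another way: *S100A8*, *S100A9* and *STAB1* were higher in cluster 21 (93.7, 152 and 455 CPM) than in cluster 6 (3.66, 8.70 and 311 CPM), as was *LYVE1*, and *CCR2* and *ITGA4* were higher in cluster 16 (43.4 and 783 CPM) than in either. The control Microglia had *SALL1* at 64.3 CPM (8 UMIs), and *CD3E*, *IL7R* and *SKAP1* had no UMI there. Of 9 macrophage and monocyte genes listed for both cohorts, 8 were detected in them, at 1784 CPM in sum, against 3690, 1995 and 3653 CPM in the Microglia of injured replicates 1, 2 and 3. Among them were genes of macrophages at vessels and membranes, with *STAB1* at 731 CPM and *LYVE1* at 241 CPM. Of the 3 endothelial genes, *FLT1* stood at 570.5 CPM in the control Microglia, and the 2 others, *IGFBP7* and *SLC2A1*, had no UMI there.

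Within Microglia, all 5 members were lower in every injured animal than the 1 value of the control pool. For *CX3CR1*, *CSF1R*, *GPR34* and *MED12L* the injured values also lay below the control interval, and *P2RY12* was not clearly apart. How many of all genes lay so was not counted. *P2RY12* stood at 171.5, 116 and 181 CPM in injured replicates 1, 2 and 3, against 233 CPM in the control (29 UMIs, interval 156 to 335). The control interval held the values of 2 of the 3 animals, and replicate 2 was the lowest. *CX3CR1* stood at 5.81, 11.6 and 14.5 CPM in the injured and at 233 CPM in the control (29 UMIs, interval 156 to 335). Replicate 1 had the least of this fractalkine receptor, and the highest injured animal was more than an order of magnitude below the control. *CSF1R* stood at 174, 179 and 212 CPM against 795 CPM in the control (99 UMIs, interval 646.5 to 968). The 3 animals lay close together for this growth factor receptor.

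*GPR34* stood at 33.8, 20.3 and 39.8 CPM in the injured animals against 289 CPM in the control (36 UMIs, interval 203 to 400.4), and replicate 2 was again the lowest. *MED12L* stood at 37.6, 40.0 and 43.3 CPM against 675 CPM in the control (84 UMIs, interval 538 to 836). Its injured values had the smallest spread of the 5 relative to their mean (40.3 ± 2.87 CPM, SD, n = 3).

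**Figure D1:**
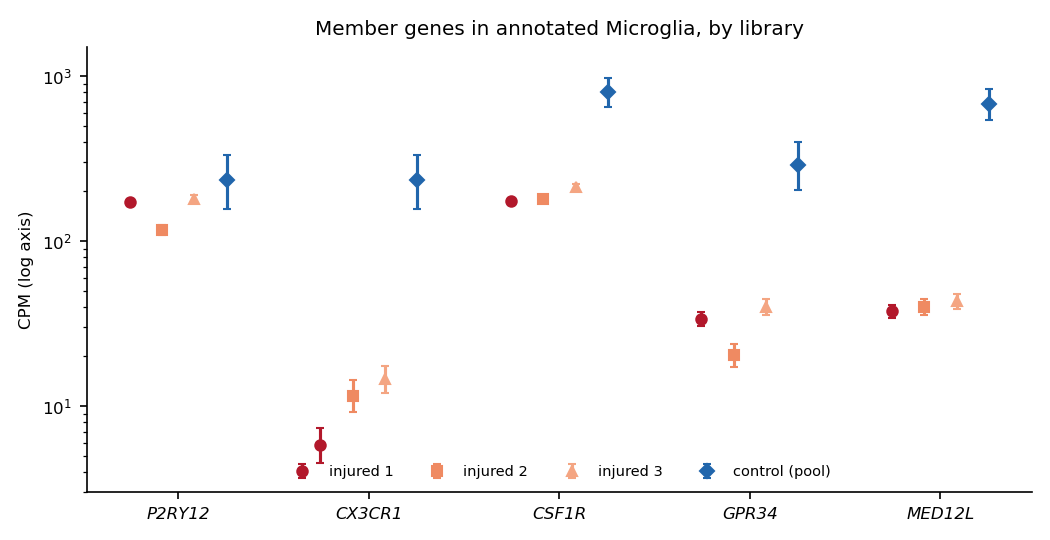
CPM (log axis) of the 5 members in annotated Microglia, with 1 point per library and exact Poisson 95% intervals that cover counting error only. *CX3CR1*, *CSF1R*, *GPR34* and *MED12L* lie below the control interval in all 3 injured libraries, while the control interval of *P2RY12* (156 to 335) holds 2 of the 3 injured values. How many of all genes lie below their control interval in this way was not counted.

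The share of nuclei with at least 1 UMI showed the same order once depth was made equal. With every nucleus thinned at random to 500 UMIs, which left out no Microglia, a UMI of *CSF1R* was found in 8.21% ± 1.23 of injured Microglia (SD, n = 3) and in 29.5% of control Microglia (exact binomial interval 21.8 to 38.1). For *MED12L* these were 1.82% ± 0.263 and 27.9% (20.4 to 36.5), for *GPR34* 1.44% ± 0.249 and 10.9% (6.06 to 17.5), and for *CX3CR1* 0.525% ± 0.103 and 9.30% (4.90 to 15.7). For *P2RY12* they were 5.63% ± 1.48 and 12.4% (7.26 to 19.4), and the 3 animals (5.99%, 4.01% and 6.90%) lay below the control interval for this member, too. This differed between the clusters for *P2RY12*. In cluster 21 the animals had 9.29% to 12.6%, inside that interval. In clusters 6 and 16 they had 2.96% to 6.92% and 1.01% to 1.74%, below it. A UMI of any member was found in 15.9% ± 2.39 of injured and 62.8% of control Microglia. How many of all genes lay below their control interval in such shares was not counted.

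Without thinning, the shares were 24.9% ± 7.59 and 20.2% for *P2RY12*, 33.7% ± 4.32 and 48.1% for *CSF1R*, 8.38% ± 3.39 and 20.2% for *GPR34*, 10.8% ± 2.23 and 40.3% for *MED12L*, and 3.04% ± 1.05 and 19.4% for *CX3CR1*. For *P2RY12* the order of the cohorts thus turned with the depth (median 3026 UMIs against 793). In excitatory neurons (ExN), which should lack *CSF1R*, a UMI of it was found in 0.197% ± 0.0199 of injured and 0.222% of control nuclei thinned to 500 UMIs, at median depths before thinning of 5949 and 2678 UMIs. Their share for *CX3CR1* was 0.0290% ± 0.0271 and 0% (0 of 5402 control nuclei, with an exact upper limit of 0.0683%).

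Across the 7 annotated cell types, the members fell into different patterns. These are given as a description, because *P2RY12* and *GPR34* were among the markers the authors used to name Microglia. The clustering rested on the most variable genes, and whether the members were among them is not given in the sources used here. *CSF1R* and *CX3CR1* were close to specific for Microglia. *CSF1R* averaged 188 ± 20.7 CPM in injured Microglia (SD, n = 3) and between 4.39 and 6.54 CPM in the 6 other types, which did not differ from each other beyond their spread. *CX3CR1* averaged 10.6 ± 4.43 CPM in injured Microglia and between 0.256 and 0.945 CPM in the others, each on 3 to 40 UMIs. In the control library, the other types had at most 10.7 CPM of *CSF1R* (oligodendrocyte precursors, OPC, 2 UMIs) and 0.702 CPM of *CX3CR1* (ExN, 12 UMIs).

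*P2RY12* was highest in Microglia and next in astrocytes (Astro). The injured astrocytes held 54.7, 42.4 and 50.4 CPM of it and the control astrocytes 55.5 CPM (48 UMIs, interval 40.9 to 73.6), so that the cohorts overlapped. This was below Microglia in every library and above each of the 5 other types, which averaged 7.02 to 19.1 CPM in the injured animals. The neuronal types InN and ExN, at 13.1 ± 1.72 and 12.7 ± 0.510 CPM, did not differ beyond their spread.

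*MED12L* was highest in astrocytes in the injured cohort and highest in Microglia in the control. Injured astrocytes held 101, 89.2 and 109 CPM and control astrocytes 147 CPM (127 UMIs). In the injured cohort Microglia (40.3 ± 2.87 CPM) came behind inhibitory neurons (InN, 52.8 ± 3.16) and ExN (46.2 ± 6.26) and level with OPC (39.8 ± 6.81), and the ranges of Microglia, ExN and OPC overlapped. In the control the Microglia level of 675 CPM was 4.60 times that of astrocytes, the next type.

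*GPR34* was shared between Microglia and OPC. The injured OPC held 51.1, 22.2 and 31.5 CPM, a range that overlapped the 20.3 to 39.8 CPM of injured Microglia, and the control OPC held 107 CPM (20 UMIs, interval 65.4 to 165) against 289 CPM in control Microglia. All other types averaged between 3.39 and 6.37 CPM in the injured animals.

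The ratio between cohorts is given for each member as a description. The injured mean over the control value of *MED12L* was 0.0597 in Microglia, and 0.680 in astrocytes, 0.987 in ExN and 0.994 in InN. For *GPR34* it was 0.108 in Microglia and 0.326 to 0.599 in the others. For *CSF1R* it was 0.237 in Microglia and 1.28 in ExN. Over the other types with control UMIs, that of *CSF1R* ranged from 0.445 (OPC, 2 control UMIs) to 1.89 (astrocytes, 3 control UMIs). For *CX3CR1* it was 0.0456 in Microglia, 1.01 in ExN and 0.788 in InN (1 control UMI), and no other type had a control UMI. For *P2RY12* it was 0.671 in Microglia, 0.676 in InN, 0.693 in ExN and 0.886 in astrocytes (48 control UMIs), and 1.43, 1.78 and 5.13 in endothelial cells, OPC and oligodendrocytes, where the control had 1, 2 and 4 UMIs. For *P2RY12* the ratio in Microglia, on 29 control UMIs, was thus close to those of the neurons, and their order is not resolved. *DOCK8*, a gene of all leukocytes, had a ratio of 0.928 in Microglia (1163 ± 73.3 CPM against 1253 CPM). Other such genes differed more: *PTPRC*, also used by all leukocytes, had a ratio of 1.74 (756 ± 50.2 against 434 CPM), and *CD74*, a further marker of the authors, stood at 1177 CPM over the injured Microglia and at 8.03 CPM (1 UMI) in the control.

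**Figure D2:**
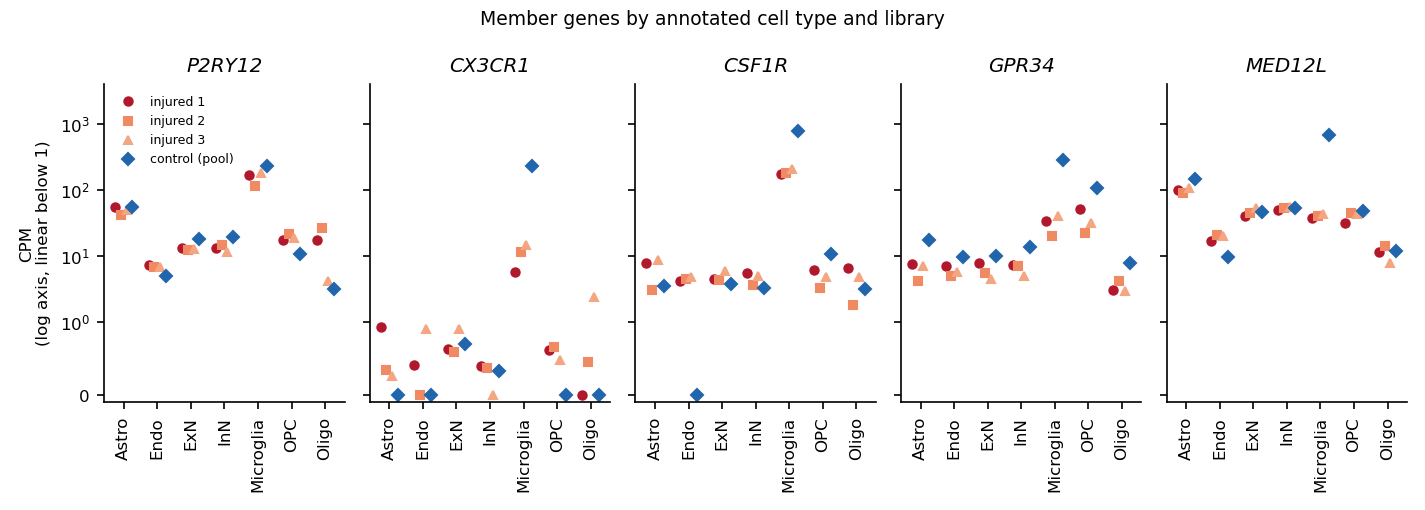
CPM (log axis, linear below 1) of each member in the 7 annotated cell types, with 1 point per library (3 injured animals and the control pool). *CSF1R* and *CX3CR1* stand out in Microglia alone, *P2RY12* and *MED12L* are also seen in astrocytes (means of 49.1 and 99.8 in the injured), and *GPR34* in OPC.

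Gene models overlap at both loci where a member was seen outside Microglia. In the RefSeq annotation of another marmoset assembly (calJac240_pri, used for gene order alone), the *MED12L* model spans *P2RY12* and *P2RY13*, as well as *P2RY14*, *GPR171* and *IGSF10*, and the *CASK* model spans *GPR34*, whose neighbour is *GPR82*. The counts came from gene models made for nuclei, and how these treated introns and reads in such overlaps is not given in the sources used here, so the counts of *P2RY12*, *MED12L* and *GPR34* are uncertain to that extent.

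Of the overlapping genes, *P2RY13* and *CASK* had their own highest levels in the same non-microglial types. *P2RY13*, a related ADP receptor, stood at 163 ± 42.8 CPM in injured astrocytes and 252 CPM in control astrocytes, above its Microglia levels of 79.1 ± 12.3 and 88.4 CPM. *CASK*, a scaffold protein of cell contacts, stood at 1166 ± 72.5 CPM in injured OPC and 1701 CPM in control OPC, the highest of all types, against 158 ± 11.8 and 378 CPM in Microglia. In astrocytes there were 1.85, 2.10 and 2.17 UMIs of *MED12L* per UMI of *P2RY12* in the injured animals and 2.65 in the control, whereas in Microglia there were 0.219, 0.344 and 0.239 in the injured and 2.90 in the control. There were 0.145, 0.0726 and 0.171 UMIs of *CSF1R* per UMI of *P2RY12* in injured astrocytes, against 1.01, 1.54 and 1.17 in injured Microglia. The ratio of the members thus differed between the types within each injured library, and the part of the overlapping gene models in this was not tested.

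**Figure D3:**
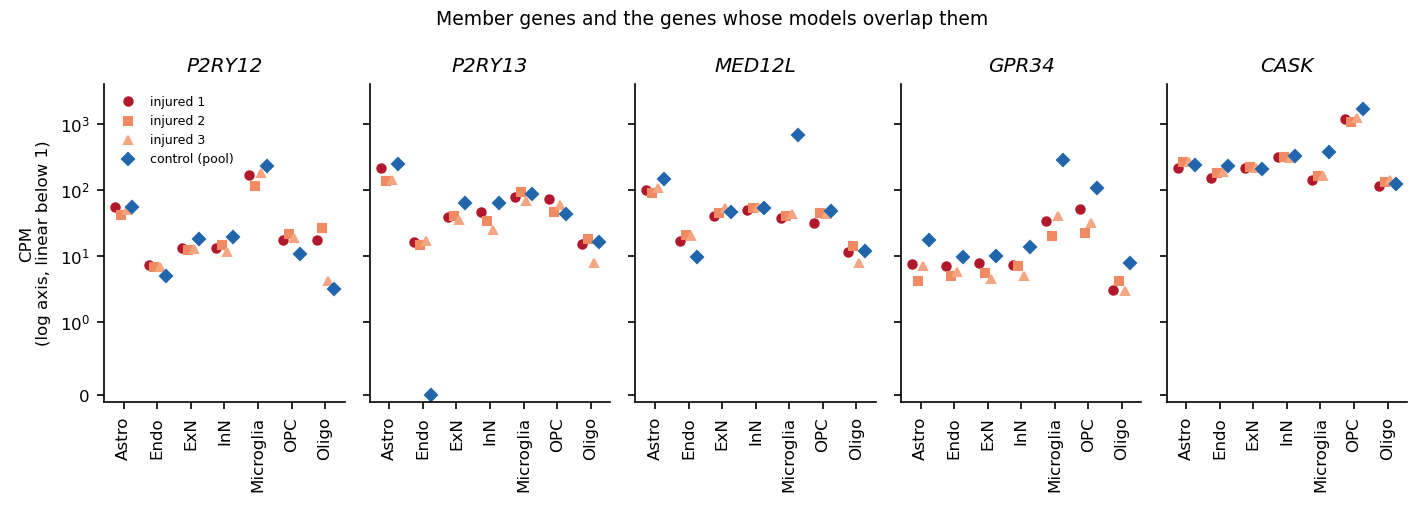
CPM (log axis, linear below 1) by cell type and library for *P2RY12*, *P2RY13* and *MED12L*, which share a locus, and for *GPR34* and *CASK*, which share another. *P2RY13* and, in the injured, *MED12L* are highest in astrocytes, and *CASK* is highest in OPC, the type in which *GPR34* reaches 107 in the control.

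The cohorts were then compared with edgeR on the summed counts of Microglia (13470 genes). The control pool has no replicate, so its spread was assumed to equal that of the 3 injured animals. At the limits used (adjusted p below 0.01, a natural-log fold change beyond 0.25 either way, and detection in 10% or more of the nuclei on either side) no member was called, and neither was any other gene (0% of 13470). By edgeR, 2859 genes had an unadjusted p below 0.05, and by DESeq2 318 genes (2.36%) were called, among them *CX3CR1*, *CSF1R*, *GPR34* and *MED12L*, all lower. With an adjusted p limit of 0.05, added after the data were seen, edgeR called 347 genes (2.58%), 203 of them higher (1.51%) and 144 lower (1.07%), and *CX3CR1*, *CSF1R*, *GPR34* and *MED12L* were among the lower. *CX3CR1* and *GPR34* met the 10% detection limit only through the control, where they were high (3.04% and 8.38% of injured nuclei against 19.4% and 20.2%), so that their calls as lower are not independent of that limit.

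*MED12L* had a log2 fold change of -3.82 ± 0.18 (SE), that is 14.1-fold lower in the injured (edgeR, adjusted p = 0.0172). *CX3CR1* had -4.22 ± 0.67, or 18.6-fold lower (edgeR, adjusted p = 0.0486). *GPR34* had -2.96 ± 0.47, or 7.77-fold lower (edgeR, adjusted p = 0.0479), and *CSF1R* -1.83 ± 0.19, or 3.55-fold lower (edgeR, adjusted p = 0.0291). *P2RY12* had -0.33 ± 0.35, a difference smaller than its error (edgeR, adjusted p = 0.647). Each member, *P2RY12* included, lay lower in 3 of 3 injured animals than in the control, and how many of all genes did so was not counted. The median of the 13470 genes was 0.42, of which 3021 had no UMI in the control, and the median of the 3261 genes with at least 10 control UMIs was -0.06. Scaling by library size alone moved the latter to -0.29, and against it the members differed by almost the same amounts, for example -3.76 for *MED12L* under either scaling.

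Parts of the injured Microglia were also set against the same control. Fits with 1 animal left out used the detection shares of all animals. A call of *GPR34* as lower in those fits is thus again not independent of the 10% limit. Without cluster 16 the log2 fold changes were -0.10 for *P2RY12*, -4.03 for *CX3CR1*, -1.59 for *CSF1R*, -2.80 for *GPR34* and -3.68 for *MED12L* (edgeR, adjusted p = 0.868, 0.0570, 0.0372, 0.0569 and 0.0238). With cluster 21 alone, the one large cluster with *SALL1* above 10 CPM, they were -2.70 for *CX3CR1*, -1.79 for *CSF1R*, -1.71 for *GPR34* and -2.69 for *MED12L* (edgeR, adjusted p = 0.0995, 0.0379, 0.0781 and 0.0166), and *P2RY12* changed sign to 0.33 (edgeR, adjusted p = 0.489). Leaving out injured replicate 2 raised the number of genes called from 0 to 374, with *CSF1R*, *GPR34* and *MED12L* among them (edgeR, adjusted p = 0.00341, 0.00311 and 0.000656). Leaving out replicate 1 gave 11 genes, including *MED12L* (edgeR, adjusted p = 0.00724).

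Other genes of the resting state moved unevenly in this comparison. Of 16 further homeostatic genes, 14 were tested, 5 had a fold change above 0 and 9 below, and the median was -0.84 on the log2 scale, or -0.90 with *OLFML3*, which had no control UMI, set at its bound, against 0.42 for all genes, or -0.30 with such genes at their bounds. None was called. At the added limit of 0.05, 4 were lower and none higher: *SORL1*, a sorting receptor, at -3.23 ± 0.26, *FRMD4A*, a scaffold protein, at -2.88 ± 0.32, *ST3GAL6*, a sialyltransferase, at -2.16 ± 0.28, and *SELPLG*, a selectin ligand, at -2.00 ± 0.32 (edgeR, adjusted p = 0.0206, 0.0308, 0.0374 and 0.0486). *P2RY13*, next to *P2RY12*, differed by less than its error (0.09 ± 0.40). *SALL1* had -1.81 ± 0.39 on 8 control UMIs (edgeR, adjusted p = 0.0788).

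Of the ligands and partners of these receptors, 8 of 10 genes were tested, and none passed either limit. *ADAM10* and *ADAM17*, the proteases that release fractalkine, had fold changes of -0.08 ± 0.26 and -0.30 ± 0.17. *TYROBP*, a signalling adaptor of myeloid receptors, had 1.59 ± 0.28 (edgeR, adjusted p = 0.0603). The ligands were found mainly in other cells. *CX3CL1* averaged 61.8 ± 7.72 CPM in injured ExN and 26.6 CPM in control ExN, against 9.52 ± 4.18 CPM in injured Microglia and 0 UMIs in control Microglia, and injured Endo, at 57.6 ± 24.5 CPM, overlapped ExN. In the injured animals *CSF1* averaged 25.2 ± 17.8 CPM in OPC, 16.8 ± 6.29 CPM in Endo and 16.3 ± 9.85 CPM in astrocytes, with ranges that overlapped, and *IL34* averaged 8.65 ± 3.06 CPM in astrocytes and 5.36 ± 2.69 CPM in InN, which overlapped as well.

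All 7 genes of the Mediator kinase module and its paralogs were tested, and *MED12L* was the only one past the added limit of 0.05. *MED13L* had 0.89 ± 0.18 and *MED13* -0.14 ± 0.18, *CDK8* had 0.41 ± 0.25, *CDK19* 0.67 ± 0.28 and *CCNC* -0.55 ± 0.26, and *MED12* had no UMI in the control Microglia. Of 11 tested myeloid transcription factors none passed either limit, with a median of -0.32, and *SPI1*, which controls *CSF1R*, had 0.91 ± 0.25 (edgeR, adjusted p = 0.122). Of 14 tested activation and lipid-handling genes 11 lay above 0, and 3 passed the added limit of 0.05, all higher: *CTSB*, a lysosomal protease, at 3.68 ± 0.37 on 4 control UMIs (edgeR, adjusted p = 0.0283), and *LGALS3* and *CD63*, which had no control UMI. These 3 met the 10% detection limit only through the injured nuclei, where they were high, so that their calls as higher are not independent of that limit.

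**Figure D4:**
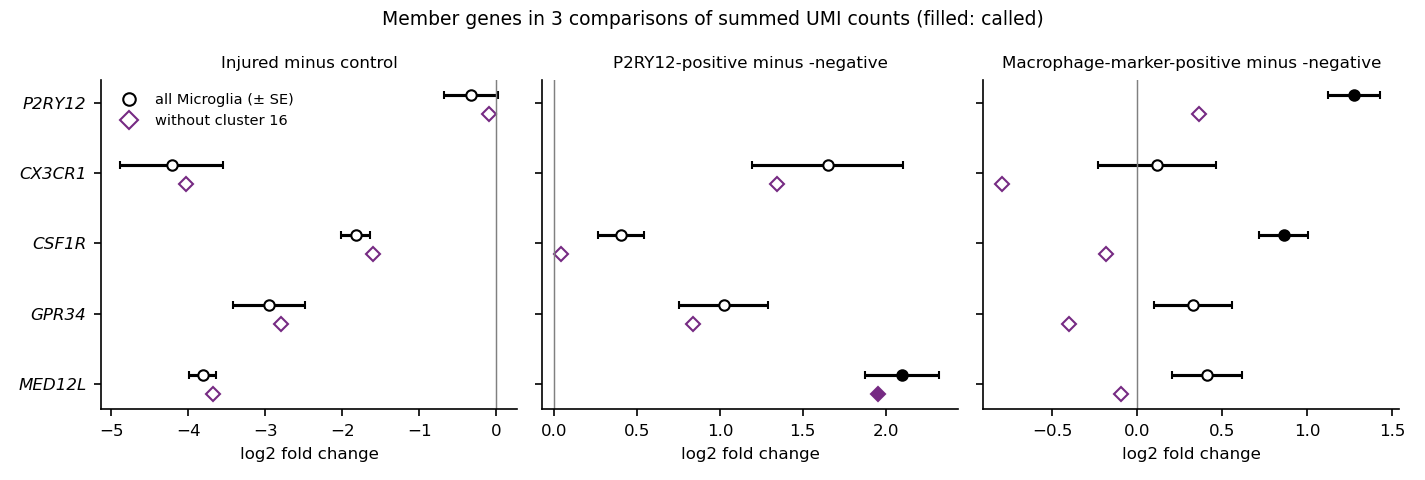
Log2 fold changes of the members in 3 comparisons (injured minus control Microglia, *P2RY12*-positive minus -negative and macrophage-marker-positive minus -negative injured nuclei), with standard errors for all Microglia (circles) and values without cluster 16 (diamonds), filled where called at adjusted p below 0.01. In the first panel no symbol is filled and *P2RY12* lies near 0, *MED12L* is called in the second with and without cluster 16, and *P2RY12* and *CSF1R* are called in the third with cluster 16 included.

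Within the injured cohort the members differed between the authors' clusters. This is a description, as the clusters were made from the same counts, on variable genes that may include members. *P2RY12* stood at 164, 83.7 and 160 CPM in cluster 6 of replicates 1, 2 and 3, at 31.0, 18.7 and 26.9 CPM in cluster 16 and at 247, 254 and 275 CPM in cluster 21. *CX3CR1* stood at 1.02, 0.477 and 1.41 CPM in cluster 6, at 3.79, 1.70 and 6.74 CPM in cluster 16 and at 15.7, 42.9 and 38.3 CPM in cluster 21. For both receptors cluster 21 was the highest of these 3 large clusters in each animal, and cluster 6, which held *P2RY12*, had almost no *CX3CR1* (15 UMIs among 15289321).

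*CSF1R* took another order, with 215, 209 and 234 CPM in cluster 6 and 162, 202 and 243 CPM in cluster 21, ranges that overlapped, and 21.5, 34.8 and 37.5 CPM in cluster 16. *GPR34* stood at 12.9, 5.73 and 9.15 CPM in cluster 6, at 24.0, 11.9 and 10.6 CPM in cluster 16 and at 77.2, 56.8 and 98.4 CPM in cluster 21. *MED12L* followed *GPR34*, with 18.4, 14.6 and 16.7 CPM in cluster 6, 25.3, 27.2 and 19.2 CPM in cluster 16 and 78.9, 105 and 93.2 CPM in cluster 21. *CX3CR1*, *GPR34* and *MED12L* were thus several times higher in cluster 21 than in cluster 6 in all 3 animals, *P2RY12* was higher by less, and *CSF1R* was at similar levels in both. With nuclei thinned to 500 UMIs a UMI of any member was found in 28.1% ± 4.14 of cluster 21, 16.5% ± 3.23 of cluster 6 and 5.13% ± 0.293 of cluster 16 (SD, n = 3 animals).

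The smallest cluster, 27, had 8 nuclei from injured replicate 2, 13 from replicate 3 and none from replicate 1. Summed over animals it held *P2RY12* at 252 CPM (11 UMIs, Poisson interval 126 to 451), *CX3CR1* at 68.7 CPM (3 UMIs, 14.2 to 201), *CSF1R* at 412 CPM (18 UMIs, 244 to 652), *GPR34* at 275 CPM (12 UMIs, 142 to 480.1) and *MED12L* at 298 CPM (13 UMIs, 159 to 509). The value of *GPR34* was above the value of each other cluster in every animal and near the control level of 289 CPM, and that of *MED12L* was the highest of the 4 clusters and below the control level of 675 CPM. Excitatory neuron genes summed to 3023 CPM in this cluster, against 996 to 1428 CPM in the other clusters, and endothelial genes to 550 CPM, against 77.4 to 308 CPM, and their part in these values was not tested. These 21 nuclei came from 2 animals and allow no test between animals.

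**Figure D5:**
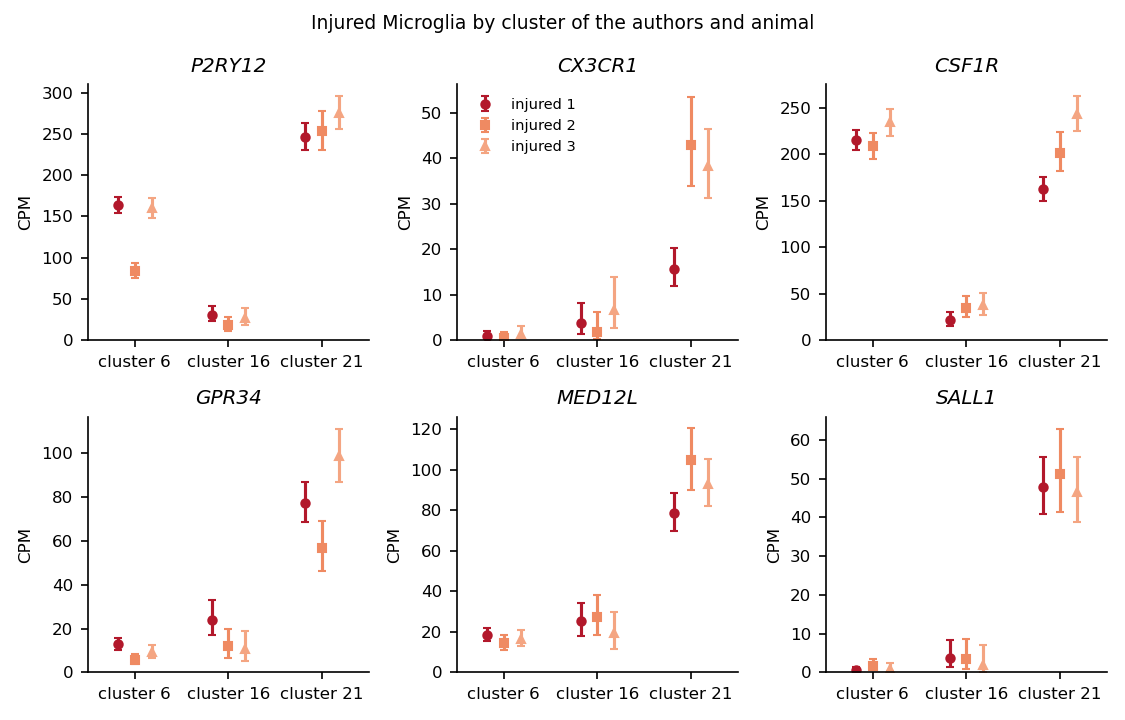
CPM of the 5 members and of *SALL1* in the 3 large clusters of injured Microglia, with 1 point per animal and exact Poisson 95% intervals that cover counting error only (each axis starts at 0). Cluster 21 is highest in every animal for all genes shown but *CSF1R*, for which clusters 6 (209 to 234) and 21 (162 to 243) overlap.

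To ask whether the members were found in the same nuclei, injured Microglia were thinned to 1000 UMIs each (146, 282 and 172 shallower nuclei were left out) and split by the presence of a *P2RY12* UMI within each animal. There were 297, 188 and 250 positive and 2380, 2222 and 1796 negative nuclei in replicates 1, 2 and 3. A nucleus without a UMI at this depth may still express the gene. The sums were compared with edgeR with the animal as a block (9665 genes, of which 3.7% were called, 2.23% higher and 1.47% lower).

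Of the 4 other members *MED12L* was called, and it was higher in *P2RY12*-positive nuclei in 3 of 3 animals. It stood at 97.8, 144 and 100.1 CPM in the positive and at 19.3, 31.1 and 31.2 CPM in the negative nuclei, a log2 fold change of 2.10 ± 0.22 (edgeR, adjusted p = 2.25e-07). *P2RY12* lies within the *MED12L* model, and its part in this was not tested. *GPR34* stood at 47.2, 47.9 and 84.1 CPM against 31.1, 18.0 and 39.0 CPM, a difference of 1.02 ± 0.27 that missed the limit (edgeR, adjusted p = 0.0146). *CX3CR1* stood at 3.37, 53.3 and 36.0 CPM against 5.04, 11.7 and 11.1 CPM, higher in 2 of 3 animals, with 1.65 ± 0.45 (edgeR, adjusted p = 0.0209). The detection limit of 10% was read from the unthinned counts of these nuclei. *CX3CR1* had a UMI there in at most 7.07% of either class, so that it could not have been called at any p. *MED12L* and *GPR34* met the limit only through the positive nuclei, where they were high (29.0% and 16.5%). The call of *MED12L* as higher is thus not independent of that limit. *CSF1R* stood at 192, 181 and 284 CPM against 154, 162 and 193 CPM, with 0.40 ± 0.14 (edgeR, adjusted p = 0.0772).

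The clusters were represented unequally in the classes. Cluster 21 gave 43.8%, 56.9% and 54.0% of the positive nuclei and 23.4%, 17.6% and 25.8% of the negative ones, and cluster 16 gave 4.71%, 4.26% and 5.20% of the positive and 27.2%, 24.2% and 24.6% of the negative. Without cluster 16, *MED12L* was still called (1.96, edgeR, adjusted p = 5.72e-05), *GPR34* and *CX3CR1* stood at 0.84 and 1.34 (edgeR, adjusted p = 0.0930 and 0.118), *CSF1R* went to 0.04 (edgeR, adjusted p = 0.944), and the number of genes called went from 358 to 112.

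Some other homeostatic genes were higher beside *P2RY12* as well. Of 14 tested, 4 rose and none fell, with a median log2 fold change of 0.50 against -0.01 for all genes: *FRMD4A* by 1.13 ± 0.11, *P2RY13* by 0.87 ± 0.20, *MERTK*, a receptor for the uptake of dead cells, by 0.79 ± 0.08 and *ST3GAL6* by 0.77 ± 0.17 (edgeR, adjusted p = 5.1e-08, 0.00500, 2.09e-07 and 0.00291). In clusters 6, 16 and 21, *MERTK* stood at 1298, 133 and 1277 CPM and *FRMD4A* at 283, 126 and 846 CPM. *ST3GAL6* stood there at 50.8, 76.6 and 253 CPM and *P2RY13* at 45.3, 48.2 and 154 CPM. The part of the unequal clusters in these 4 changes, and of the locus that *P2RY13* shares with *P2RY12*, was not tested. *MEF2C*, a transcription factor, rose by 0.53 ± 0.09 (edgeR, adjusted p = 0.000137), the only one called of 10 in its list. Of the 13 tested activation genes none rose and 2 fell, *SPP1*, encoding osteopontin, by 0.73 ± 0.16 and *LGALS3*, encoding galectin-3, by 0.72 ± 0.15 (edgeR, adjusted p = 0.00401 and 0.00154). *CD74*, the invariant chain of antigen presentation, fell by 0.68 ± 0.10 (edgeR, adjusted p = 1.76e-05). None of the 6 tested ligand and partner genes and no Mediator gene other than *MED12L* was called.

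Genes of other immune cells moved with the class too. Of 11 tested macrophage and monocyte genes 5 rose and 1 fell, with *S100A9*, a calgranulin, up by 0.96 ± 0.22, *STAB1*, a scavenger receptor, up by 0.79 ± 0.13 and *ITGA4*, an integrin of recruited leukocytes, down by 1.20 ± 0.15 as the largest changes. All 6 tested lymphocyte genes lay below 0 with a median of -2.18, and *CD247*, a chain of the T cell receptor complex, fell by 2.23 ± 0.29. The part of these cells in the differences of the members was not tested beyond the fit without cluster 16.

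The last comparison split the same thinned nuclei by any UMI of 9 macrophage and monocyte genes (*MRC1*, *CD163*, *F13A1*, *LYVE1*, *STAB1*, *CCR2*, *LYZ*, *S100A8* and *S100A9*). This gave 1947, 1480 and 1503 positive and 730, 930 and 543 negative nuclei, and 1136 of 10003 genes were called (11.4%, of which 7.62% of all genes were higher and 3.74% lower). *P2RY12* was called as higher in the positive nuclei, with 163, 124 and 176 CPM against 52.1, 54.8 and 105 CPM, a log2 fold change of 1.28 ± 0.15 (edgeR, adjusted p = 6.3e-07). *CSF1R* was called too, with 190.2, 177 and 230 CPM against 75.3, 141 and 136 CPM, and 0.86 ± 0.14 (edgeR, adjusted p = 6.58e-05). Both were higher in 3 of 3 animals. *GPR34* (0.33 ± 0.23), *MED12L* (0.41 ± 0.21) and *CX3CR1* (0.11 ± 0.35) were not called (edgeR, adjusted p = 0.345, 0.171 and 0.865), and *CX3CR1* was higher in 1 of 3 animals. *CX3CR1* and *GPR34*, with a UMI in at most 3.50% and 9.86% of either class in the unthinned counts of these nuclei, were under the detection limit and could not have been called.

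Both calls were lost without cluster 16, which made up 64.9%, 45.4% and 55.8% of the negative and 9.60%, 8.38% and 10.1% of the positive nuclei. In that fit *P2RY12* stood at 0.36 (edgeR, adjusted p = 0.307), and *CSF1R*, *GPR34*, *MED12L* and *CX3CR1* lay below 0, at -0.19, -0.40, -0.10 and -0.79 (edgeR, adjusted p = 0.677, 0.679, 0.961 and 0.490), with 85 genes called (0.938%). With cluster 16 included, the lymphocyte genes *SKAP1*, *THEMIS* and *CD247* were lower in the positive nuclei by 3.29 ± 0.17, 2.81 ± 0.15 and 2.36 ± 0.14. Of 14 homeostatic genes 5 rose and 1 fell there, the largest changes being *SORL1* at -1.58 ± 0.12, *MERTK* at 1.49 ± 0.10 and *LPCAT2*, an enzyme of phospholipid synthesis, at 0.76 ± 0.13.

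Over the 28 sums of library and cell type, the 5 genes most like the members were *LOXL3* (Pearson r = 0.915 with the mean of the scaled members on the log2(CPM + 1) scale), *PRUNE2* (0.905), *HHIPL1* (0.905), *TMEM138* (0.902) and *SH3BP1* (0.884), among 15338 genes with at least 50 UMIs. The sums share libraries and differ in depth, so these values are a description. Between members the correlation was highest for *CX3CR1* with *CSF1R* (0.897) and lowest for *MED12L* with *CSF1R* (0.477).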

How the data were processed

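Single-nucleus RNA of marmoset V1 was captured with 3' chemistry. The authors counted UMIs with Cell Ranger 3.1.0 on calJac3 with an Ensembl annotation adapted to nuclear RNA, removed doublets with Scrublet (injured) or by genes per nucleus (control), clustered the nuclei and named cell types. What was deposited are raw counts (UMIs of each gene in each nucleus, not normalized) and the library, cluster and cell type of every nucleus. The listed totals matched the counts throughout. Nuclei too shallow for thinning were left out, and some alternatives left out nuclei by cluster or by genes per nucleus.

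For each library, counts were added up over a cell type, a cluster or a class of nuclei, and each library was 1 replicate. Sums were tested with edgeR 4.0.16 in R 4.3.3 (TMM, filterByExpr, glmQLFit, glmQLFTest, Benjamini-Hochberg adjustment over all genes tested, SE from the log2 fold change and F), and with DESeq2 1.42.0 as an alternative. Steps were tested on simulated counts. The classes of nuclei were paired by animal: the 2 classes of an animal deviated together from the class means (r = 0.206 to 0.316 for the *P2RY12* split and 0.315 to 0.485 for the macrophage-marker split).

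The injured replicates were numbered in accession order. The members and gene lists were chosen with earlier results of these data known. Named were the members, in each list the 3 called genes of largest fold change with more than 3 UMIs on both sides (all where 5 or fewer were called), the 5 genes most like the members, and genes with overlapping or neighbouring models. Genes outside this rule, and clusters 16, 21 and 27, were picked after their values were seen. Other steps ran in Python 3.11.15 (scipy 1.17.1, pandas 2.3.3, numpy 2.4.6).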

Additional observations from a re-analysis of the deposited data

How the results depend on the processing

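With 129 control Microglia in 1 pool, depth limits what the cohort comparison can show: members rest on 29 to 99 control UMIs, and intervals cover counting error only. No paired analysis was possible for the cohorts because the control is 1 pooled library.

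In the comparison of cohorts, *MED12L* was called with library size alone (-4.06), nuclei thinned to 500 UMIs (-3.83) and nuclei of at most 2500 genes (-3.82), and *GPR34* with thinned nuclei (-3.20). DESeq2 called *CX3CR1* (-4.22), *CSF1R* (-1.84), *GPR34* (-2.98) and *MED12L* (-3.83), and so did an adjusted p limit of 0.05 (-4.22, -1.83, -2.96 and -3.82), which was chosen after seeing the data, like the fits by cluster. With thinned nuclei, DESeq2 and the limit of 0.05, *CX3CR1* and *GPR34* met the detection limit only through the control, where they were high. Their calls as lower in those fits are thus not independent of that limit. *P2RY12* turned to 0.33 in cluster 21 alone. Genes called numbered 4 with library size alone, 318 with DESeq2, 106 with thinned nuclei, 18 with nuclei of at most 2500 genes, 1 in cluster 21 alone and 347 at 0.05, against 0. Leaving out 1 animal gave 0 to 374 genes, and log2 fold changes of -1.90 to -1.76 for *CSF1R*, -3.15 to -2.74 for *GPR34*, -3.85 to -3.75 for *MED12L*, -4.49 to -3.89 for *CX3CR1* and -0.43 to -0.17 for *P2RY12*.

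In the *P2RY12* split, *MED12L* was called under all 9 alternatives (1.74 to 2.30). *GPR34* was called with unthinned counts (1.12) and at the limit of 0.05 (1.02). In the split of thinned nuclei *GPR34* met the detection limit only through the positive nuclei, where it was high. Its call as higher at 0.05 is thus not independent of that detection limit. Genes called numbered 1190 with unthinned counts, 16 with no replicate block, that is without pairing by animal, 160 with DESeq2, 112 without cluster 16, 598 at 0.05 and 130 to 324 with 1 animal left out.

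In the macrophage-marker split with no replicate block, *P2RY12* (1.27) and *CSF1R* (0.86) were no longer called (edgeR, adjusted p = 0.0150 and 0.0554) and 214 genes were. Without cluster 16, *P2RY12* (0.36) was not called and *CSF1R* (-0.19), *GPR34* (-0.40), *MED12L* (-0.10) and *CX3CR1* (-0.79) changed sign, with 85 genes called. *CX3CR1* also changed sign (-0.25) with at least 2 marker UMIs, and *MED12L* was called with unthinned counts (0.76). Unthinned counts gave 1925 genes and DESeq2 529. Leaving out 1 animal gave 846 to 1257 genes. The cause of these changes was not tested.

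Thinning moved the share of injured Microglia with a UMI to 5.63% for *P2RY12*, 0.525% for *CX3CR1*, 8.21% for *CSF1R*, 1.44% for *GPR34* and 1.82% for *MED12L*. Of the values recomputed for members, 127 kept their direction and side of the limit, 19 came to pass it, 3 lost it, 6 changed sign and the 5 shares moved.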
